A study of Mus musculus with 4 samples.

Results

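A set of 10 transcription factors that steer lymphocyte fate was followed through the T cells and NK/ILC cells of a melanoma: Tcf7, Lef1, Bach2, Id3, Tbx21, Eomes, Prdm1, Id2, Zeb2 and Runx3. They were taken by gene symbol from the gene lists of the deposited matrices, where all 10 of 10 were found among 32285 genes in the CD45 sort and among 31053 genes in the T cell sort. The rule that finds them uses symbols only, though the list was drawn up with earlier results of these data known, and no gene among them was used to define a cell subset.

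The factors work in opposed groups. TCF-1 and LEF-1, the products of Tcf7 and Lef1, bind DNA through an HMG box, and together with BACH2 and the inhibitor ID3 they are known for holding lymphocytes in a naive or memory state that can renew itself. T-bet (Tbx21), EOMES, BLIMP-1 (Prdm1), ID2 and ZEB2 are known for driving cytotoxic effector or terminal states, and RUNX3 for the CD8 and innate cytotoxic programs. ID2 and ID3 bind no DNA and act by holding E proteins away from it. NK cells need T-bet and EOMES for their maturation.

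The cells came from C57BL/6 mice that carried subcutaneous tumors of B16-F10 melanoma, grown from a single-cell clone with doxycycline-inducible expression of the cytoplasmic fluorescent protein ZsGreen (ZsG). Tumors were taken on day 8 from mice given doxycycline in the drinking water, and tumor-infiltrating cells were sorted as ZsG-negative or ZsG-positive, either from all CD45+ cells (CD45 sort) or from CD45+ TCRb+ cells (T cell sort). Each of the 4 conditions is 1 library of droplet single-cell RNA-seq, and how many mice each held is not stated, so nothing below was tested between mice, and intervals are 95% intervals that cover counting error only. In the CD45 sort the ZsG-positive gate took the bright cells, and per the study's account most dimmer ZsG-positive lymphocytes fell into its ZsG-negative library.

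The libraries held between 1136 and 5437 cell barcodes and between 10030971 and 56510578 UMIs, and any pair of libraries shared 1 to 6 barcodes. After the quality limits, T cells numbered 1397 and 208 in the ZsG-negative and ZsG-positive libraries of the CD45 sort and 637 and 702 in those of the T cell sort. NK/ILC cells numbered 1824 and 81 in the CD45 sort. Only 637 of 948 and 702 of 1879 kept cells of the T cell sort met the T cell markers, and the sort also held 120 and 601 pDC and 64 and 181 macrophage/monocyte cells. For the T cell sort the labels disagree on which library is which: a file name puts the ZsG-positive library first and the library names put it second. The library with more barcodes was taken as ZsG-positive, following the file name. If the order is the other way, every ZsG difference given for the T cell sort changes sign.

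Since TCF/LEF and RUNX proteins are themselves among the factors, the 250 bases before each RefSeq start site were searched for a TCF/LEF core, CTTTG or its reverse complement CAAAG, and for a RUNX site, TGTGGT or its reverse complement ACCACA. Windows of 3 genes are shown 5′ to 3′ in lower case with these matches in capitals, Lef1 for its low ratio between CD8 subsets, Eomes for its level in NK cells, and Runx3 because it alone had a RUNX site. They come from the RefSeq promoter table on GRCm38.p6 and lie on the plus strand at chr3:131110047-131110296 (Lef1), chr9:118477939-118478188 (Eomes) and chr4:135120395-135120644 (Runx3). On the same build the genes span chr3:131110471-131224356 (Lef1), chr9:118478212-118486132 (Eomes), chr4:135120652-135177990 (Runx3), all on the plus strand, and chr11:52252371-52283014 on the minus strand (Tcf7).
Lef1: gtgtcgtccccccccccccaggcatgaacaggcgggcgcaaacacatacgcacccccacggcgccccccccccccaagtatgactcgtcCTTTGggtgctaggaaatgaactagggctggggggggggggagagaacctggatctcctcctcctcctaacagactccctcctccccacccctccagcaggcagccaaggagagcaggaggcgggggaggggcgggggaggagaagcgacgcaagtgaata
Eomes: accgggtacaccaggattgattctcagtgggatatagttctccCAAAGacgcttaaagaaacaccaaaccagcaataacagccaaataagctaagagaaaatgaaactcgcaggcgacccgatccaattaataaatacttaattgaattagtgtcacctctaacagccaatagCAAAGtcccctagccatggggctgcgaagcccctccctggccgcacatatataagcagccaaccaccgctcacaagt
Runx3: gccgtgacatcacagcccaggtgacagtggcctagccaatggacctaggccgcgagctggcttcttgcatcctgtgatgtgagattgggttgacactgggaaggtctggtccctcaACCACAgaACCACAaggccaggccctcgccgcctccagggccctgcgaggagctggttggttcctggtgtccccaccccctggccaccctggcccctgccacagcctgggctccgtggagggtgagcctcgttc

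The Lef1 window held 1 TCF/LEF core and the Eomes window 2, while the Runx3 window held 2 RUNX sites separated by a pair of bases. The windows of Tcf7, whose ratio between CD8 subsets was lower than that of Lef1, held 0 matches and are not shown. Of the 10 factors, 6 had a TCF/LEF core in at least 1 of their windows and 1 had a RUNX site, over 18 windows in all. A TCF/LEF core was found in 48.6% of 32851 RefSeq windows of 250 bases and a RUNX site in 14%. These shares count single windows, while the factors were counted by gene and some had more than 1 window. The letters describe the windows only, and binding was not measured.

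Among CD8 T cells, Tcf7 and Lef1 were highest in naive-like cells in each of the 3 libraries that could be compared. These cells carried Ccr7 or Dapl1 transcripts without Pdcd1, Havcr2 or Gzmk, and numbered 136 in the ZsG-negative library of the CD45 sort, 97 in the ZsG-negative and 55 in the ZsG-positive library of the T cell sort. Only 9 were found in the ZsG-positive library of the CD45 sort, which is therefore left out of this comparison. The cells at the other end carried both Pdcd1 (PD-1) and Havcr2 (TIM-3), a pair known from exhausted T cells, and numbered 380, 51 and 118 in the same order of libraries.

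Tcf7, which encodes the factor most tied to self-renewing T cells, stood at 337 CPM (UMIs of the gene per 1000000 UMIs of the subset; 95% Poisson interval 301 to 376), 296 (256 to 339) and 294 (241 to 355) CPM in naive-like cells of these 3 libraries. In Pdcd1+ Havcr2+ cells it stood at 5.75 (4.38 to 7.42), 8.49 (3.41 to 17.5) and 5.20 (2.49 to 9.56) CPM. The log2 ratio of Pdcd1+ Havcr2+ over naive-like cells was therefore -5.87 (-6.30 to -5.47), -5.12 (-6.45 to -4.05) and -5.82 (-6.92 to -4.89). The CPM intervals of the 2 subsets did not overlap, and cells with Pdcd1 but no Havcr2 lay between these subsets, at 81.2, 105 and 68.2 CPM. With every cell thinned to 2000 UMIs, a Tcf7 UMI was found in 51.5% (42.8 to 60.1), 42.3% (32.3 to 52.7) and 36.4% (23.8 to 50.4) of naive-like cells. The same share was 1.84% (0.744 to 3.76), 1.96% (0.0496 to 10.4) and 0.847% (0.0215 to 4.63) of Pdcd1+ Havcr2+ cells. Unthinned, the shares were 86.0%, 79.4% and 78.2% against 8.68%, 11.8% and 6.78%. Macrophage/monocyte cells, which should lack Tcf7, held 0 to 2.32 CPM and a UMI in 0% of thinned cells in these 3 libraries, at median depths of 8330, 12384.5 and 10694 UMIs against 6320.5, 6802 and 5488 in naive-like cells.

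Lef1, whose product binds the same DNA core as TCF-1, followed Tcf7. Naive-like cells held 222 (193 to 254), 220 (187 to 258) and 165 (126 to 212) CPM, and Pdcd1+ Havcr2+ cells 18.7 (16.2 to 21.6), 10.9 (4.99 to 20.7) and 9.88 (5.95 to 15.4) CPM. Its log2 ratios were -3.57, -4.33 and -4.06. Macrophage/monocyte cells of the 3 libraries held 0 CPM of Lef1.

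Bach2, a repressor of effector genes, was less uniform. Its level in naive-like cells was 64.2 (49.1 to 82.5) and 81.1 (61.3 to 105) CPM in the 2 ZsG-negative libraries but 27.5 (13.2 to 50.5) CPM in the ZsG-positive library of the T cell sort. Pdcd1+ Havcr2+ cells held 7.12, 8.49 and 18.2 CPM, so the log2 ratio was -3.17 (-3.68 to -2.66) and -3.26 (-4.64 to -2.12) in the ZsG-negative libraries and -0.59 (-1.64 to 0.59) in the ZsG-positive one. Id3 was low throughout, at 14.7, 18.8 and 33.0 CPM in naive-like cells and 0.585, 2.43 and 0.52 CPM in Pdcd1+ Havcr2+ cells. The latter rest on 6, 2 and 1 UMIs, and macrophage/monocyte cells held more Id3 than any of these subsets, between 34.5 and 224 CPM.

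Id2, which like Id3 encodes an inhibitor of E proteins, ran the other way. It rested at 104 (84.7 to 127), 113 (89.3 to 141) and 113 (80.8 to 153) CPM in naive-like cells and at 424 (411 to 436), 513 (465 to 564) and 419 (390 to 449) CPM in Pdcd1+ Havcr2+ cells, with log2 ratios of 2.02, 2.18 and 1.89. Gzmk+ cells without Pdcd1 and Havcr2, the pattern of effector-memory cells, held 429 (342 to 531), 556 (485 to 636) and 605 (529 to 689) CPM, above naive-like cells in each library.

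Prdm1, which encodes BLIMP-1, a transcriptional repressor that drives terminal differentiation, was near the floor in naive-like cells, at 4.21, 7.24 and 5.49 CPM from 4, 5 and 2 UMIs. It reached 33.0, 26.7 and 23.9 CPM in Pdcd1+ Havcr2+ cells, for log2 ratios of 2.97 (1.60 to 4.85), 1.88 (0.44 to 3.64) and 2.12 (0.19 to 5.21). Zeb2, a partner of T-bet in terminal effector cells, had log2 ratios of 1.22 (0.54 to 1.99), 3.09 (1.89 to 4.59) and 3.69 (2.13 to 5.98). Its levels were 18.9, 8.69 and 8.24 CPM in naive-like cells against 44.2, 74.0 and 107 CPM in Pdcd1+ Havcr2+ cells.

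The T-box factors and Runx3 had smaller ratios. Tbx21 had log2 ratios of 0.35 (-0.14 to 0.89), 0.69 (-0.25 to 1.70) and 1.39 (0.09 to 3.05). Eomes pointed in different directions, with -0.64 (-1.05 to -0.21), -1.40 (-2.43 to -0.45) and 0.71 (-0.19 to 1.76). In the ZsG-positive library 28 of its 95 UMIs in Pdcd1+ Havcr2+ cells lay in 1 cell. Runx3, at 160 to 255 CPM in both subsets, had ratios of 0.34, -0.25 and -0.46.

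**Figure D1:**
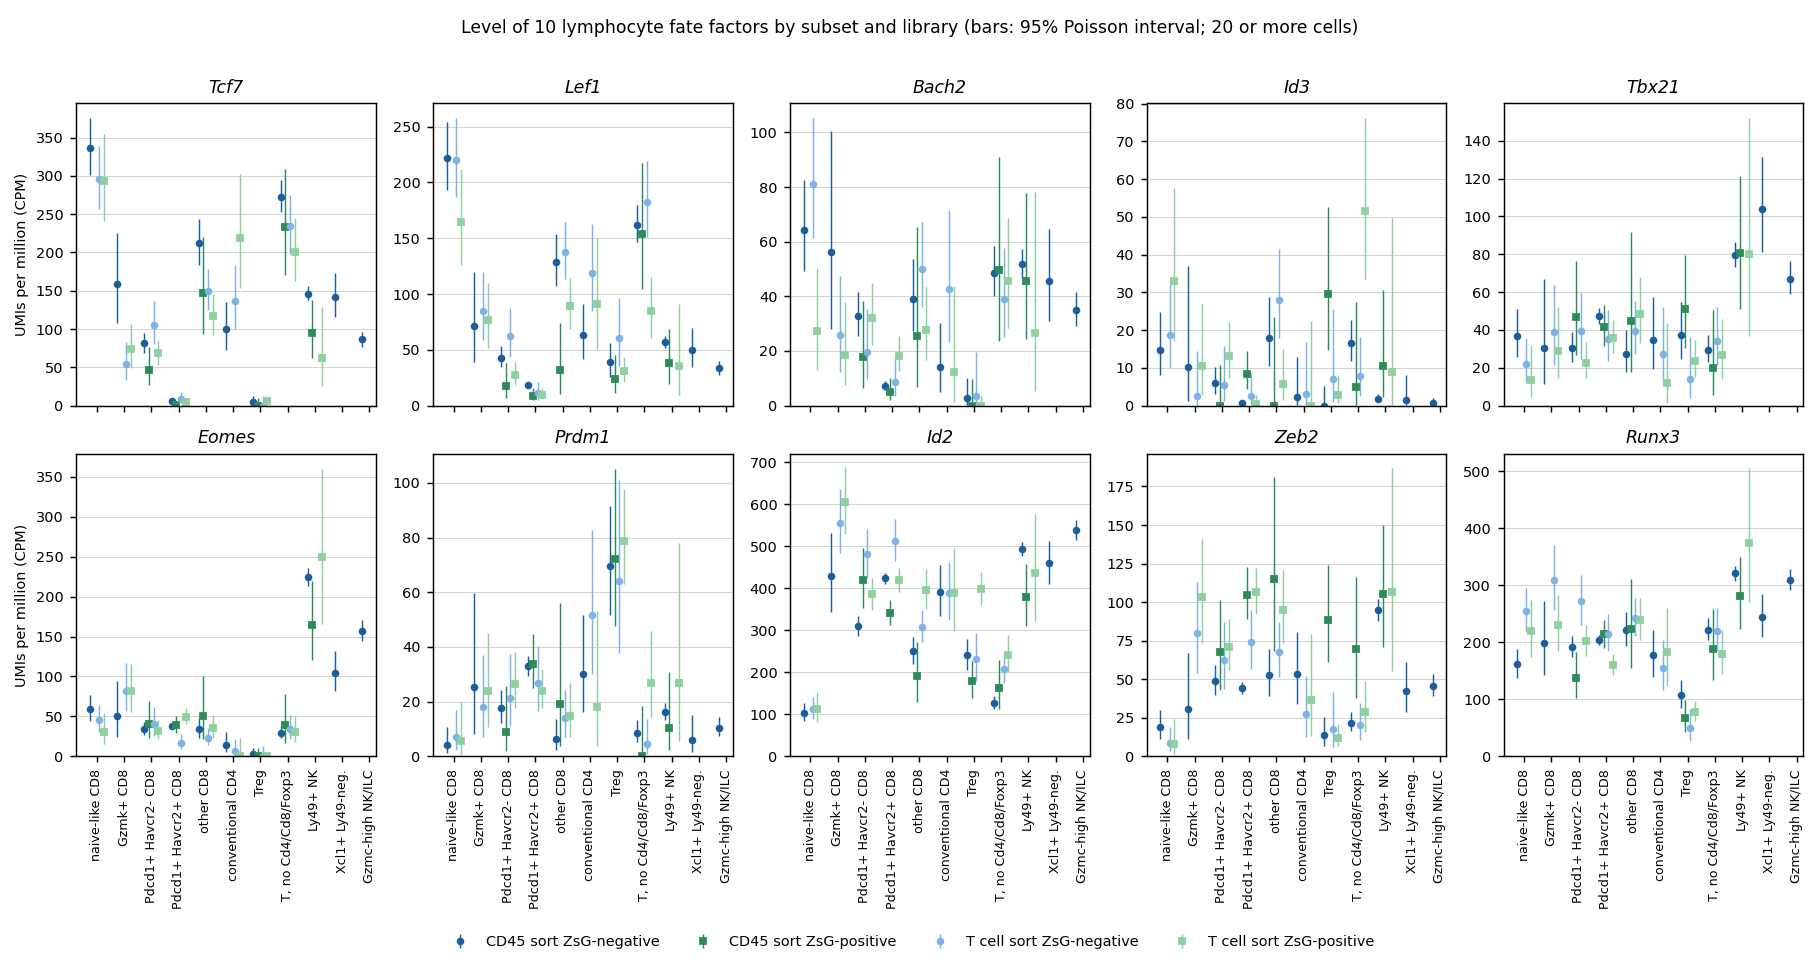
Level of each factor (CPM, on a linear axis that starts at 0) in 11 T and NK/ILC subsets, with 1 point per library for subsets of 20 or more cells and bars for the 95% Poisson interval. Tcf7 and Lef1 are highest in naive-like CD8 cells, Eomes in Ly49+ NK cells at 165 to 249 CPM, and Prdm1 in Treg cells at 64.0 to 78.9 CPM.

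A gene was called where its sums differed by a log2 ratio of at least 1 after adding 0.5 UMIs to each sum, among genes with at least 20 UMIs over both sides. In the ZsG-negative library of the CD45 sort 3 of 10 factors were called higher and 4 lower in Pdcd1+ Havcr2+ cells, against 24.4% and 12.6% of 9916 genes. In the ZsG-negative and ZsG-positive libraries of the T cell sort 3 and 4 of 9 were called higher, against 20.1% and 21.3% of genes, and 4 and 2 lower, against 10.4% and 8.87%. Calls were common between these subsets, and the median log2 ratio over all genes was 0.26, 0.28 and 0.28 against -0.16, -0.25 and 0.65 over the factors.

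Depth and gates bear on these values. Pdcd1+ Havcr2+ cells of the CD45 sort had a median of 26171.5 UMIs against 6320.5 in naive-like cells, and a gate that needs 1 UMI admits deep cells more easily. With the gates applied after every cell of that library was thinned to 2000 UMIs, the log2 ratio was -3.77 for Tcf7, -2.43 for Lef1, -2.50 for Bach2, 2.59 for Prdm1 and 0.80 for Id2, and Zeb2 turned to -0.22. Pdcd1+ Havcr2+ and naive-like cells of the T cell sort were too few for that setting.

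**Figure D2:**
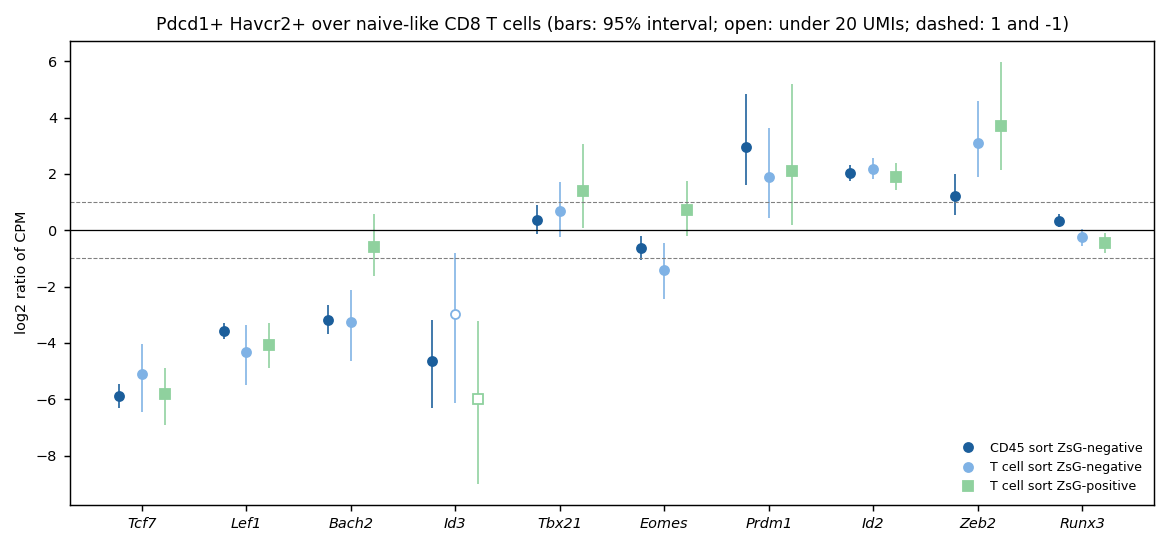
Log2 ratio of CPM in Pdcd1+ Havcr2+ over naive-like CD8 T cells for each factor in 3 libraries, with 95% intervals; open symbols rest on under 20 UMIs, and dashed lines mark 1 and -1. The lower bound of Id3 in the ZsG-positive library is drawn at the edge of the range shown. Tcf7 lies between -5.12 and -5.87 and Id2 between 1.89 and 2.18.

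Other genes measured in the same comparison were taken as fixed lists. Of 26 further lymphocyte factors, 22, 20 and 21 could be compared in the 3 libraries, with 7, 8 and 5 called higher and 8, 6 and 6 lower, where the shares over all genes were 24.4%, 20.1% and 21.3% higher and 12.6%, 10.4% and 8.87% lower. Klf2, which drives exit from tissue, had log2 ratios of -4.15, -4.29 and -3.59, and Klf3, a related repressor, -4.62, -4.30 and -5.07. Bhlhe40, a factor of activated T cells, had ratios of 3.15, 3.66 and 3.06. Of 16 effector genes 15, 14 and 14 could be compared, and 7, 10 and 11 were called higher. Ifng, which encodes interferon gamma, had ratios of 5.77, 7.78 and 8.67, and Cxcr3, a chemokine receptor, was the 1 gene called lower in each library, at -2.59, -1.84 and -2.03. Among 12 genes of naive and stem-like cells, 11 could be compared and 8, 7 and 7 were called lower and 1 higher in each. S1pr1, the receptor for exit into lymph, had ratios of -5.18, -5.07 and -5.88, and Xcl1, a chemokine of stem-like and activated CD8 cells, was the higher one, at 2.70, 4.63 and 4.95. That list holds the gate genes Ccr7 and Dapl1, and the effector list holds the gate gene Gzmk, so those 3 members were fixed by the gates. Of the E proteins, the partners that ID2 and ID3 block, Tcf12 had ratios of -1.88 and -1.42 in the libraries where it was called, and Tcf4 of 1.46 (-0.13 to 3.76, with 3 UMIs in naive-like cells) in the CD45 sort and -1.19 (-2.18 to -0.13) in the ZsG-positive T cell library. The pDC of the same libraries held 1600 and 1739 CPM of Tcf4, and the part of their transcripts in these Tcf4 ratios was not tested.

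At the level of single CD8 T cells thinned to 2000 UMIs, Id2 was found less often in cells with a Tcf7 UMI. All CD8 subsets were pooled for these shares, and the subsets differed in both genes as given above. Shares within single subsets are not given. The share with Id2 was 19.9% (14.1 to 26.8) of 166 Tcf7+ cells against 46.7% (43.0 to 50.5) of the remaining cells in the ZsG-negative library of the CD45 sort. It was 22.8% (14.7 to 32.8) of 92 against 47.3% (41.7 to 52.8) in the ZsG-negative library and 25.5% (14.7 to 39.0) of 55 against 49.5% (44.4 to 54.6) in the ZsG-positive library of the T cell sort. The intervals did not overlap in any of the 3 libraries. At full depth the shares were 48.2% against 89.1%, 46.3% against 78.4% and 53.8% against 81.6%.

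Lef1 showed the opposite pattern, at 29.5% (22.7 to 37.1) against 8.97% (6.95 to 11.4) in the CD45 sort. In the T cell sort it was found in 29.3% (20.3 to 39.8) against 18.9% (14.8 to 23.6) of ZsG-negative cells and in 20% (10.4 to 33.0) against 11% (8.05 to 14.5) of ZsG-positive cells, where the intervals overlapped. Zeb2 was found in 2.41% (0.660 to 6.05) against 7.53% (5.67 to 9.75), 2.17% (0.264 to 7.63) against 9.76% (6.77 to 13.5) and 3.64% (0.443 to 12.5) against 13.5% (10.3 to 17.3), with overlapping intervals in each library. Runx3 hardly differed, at 28.3% against 33.1%, 35.9% against 34.1% and 27.3% against 29.8%. Cells of a library share their source, so these shares describe the library and not the spread between mice.

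T cells without Cd4, Cd8 or Foxp3 UMIs resembled naive-like CD8 cells in some of these genes. They held 273 (252 to 295) and 233 (171 to 309) CPM of Tcf7 in the ZsG-negative and ZsG-positive libraries of the CD45 sort, and 234 (198 to 275) and 200 (163 to 245) CPM in those of the T cell sort. Lef1 stood at 162, 153, 183 and 84.7 CPM. This subset is mixed: in the ZsG-negative library of the CD45 sort it had 282 CPM of Trdc, the constant gene of the delta chain, so gamma-delta T cells were among the 449 cells.

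Treg cells, defined by Foxp3, held almost no Tcf7, Eomes or Bach2. Tcf7 was at 4.17 CPM (3 UMIs) and 0 UMIs in the ZsG-negative and ZsG-positive libraries of the CD45 sort and at 0 UMIs and 5.64 CPM (6 UMIs) in those of the T cell sort. The 0s allow up to 8.04 and 10.7 CPM at a floor of 3 counts. Eomes was at 0 to 2.78 CPM and Bach2 at 0 to 3.55 CPM. Prdm1 was at its highest here, at 69.5 (51.6 to 91.7) and 72.4 (47.7 to 105) CPM in the CD45 sort and 64.0 (37.9 to 101) and 78.9 (62.9 to 97.7) CPM in the T cell sort. The 4 Treg sums did not differ beyond their intervals, and all lay above every CD8 sum of 20 or more cells.

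Set against conventional CD4 T cells, Treg cells had Tcf7 log2 ratios of -4.58 (-6.92 to -2.94) in the ZsG-negative library of the CD45 sort and -5.28 (-6.81 to -4.02) in the ZsG-positive library of the T cell sort. In the ZsG-negative library of the T cell sort it was 0 UMIs against 45. Runx3, which represses Cd4 in CD8 cells, had ratios of -0.72 (-1.20 to -0.25), -1.22 (-1.84 to -0.57) and -1.64 (-2.61 to -0.77) in that order of libraries, and Prdm1 of 1.20 (0.30 to 2.20), 2.12 (0.52 to 4.42) and 0.31 (-0.73 to 1.35). Lef1, at 62.9, 91.0 and 119 CPM in conventional CD4 cells, had ratios of -0.69, -1.55 and -0.97, and Id2 of -0.70, 0.04 and -0.75. Zeb2 was called lower in the CD45 sort, at -1.95 from 10 and 23 UMIs, and was at 0.30 with macrophage-marker cells kept. Tbx21 was at 0.10 (-0.86 to 1.12) and 0.95 (-1.05 to 4.08) in the first 2 libraries, and the remaining values rest on under 20 UMIs. This comparison was added after the levels had been seen. In the same order, 1 of 7, 1 of 6 and 0 of 5 factors were called higher, against 5.66%, 17% and 8.71% of genes, and 2, 3 and 2 lower, against 5.47%, 9.04% and 7.14%.

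NK/ILC cells carried the T-box factors. In the ZsG-negative library of the CD45 sort, the library with most NK/ILC cells, they were divided by transcripts into 1354 Ly49+ NK cells, 114 Xcl1+ cells without Ly49 receptors and 317 cells high in Gzmc. The Gzmc gate came first, so Gzmc-high cells could carry Ly49 genes, at 1228 CPM against 2317 CPM in Ly49+ cells. Eomes stood at 224 (214 to 236) CPM in Ly49+ cells, 157 (144 to 170) in Gzmc-high cells and 104 (81.3 to 131) in Xcl1+ cells. The 3 intervals were apart from each other and from the CD8 T cells pooled within each of the 4 libraries, which held 36.1 to 44.3 CPM. Single CD8 subsets could lie higher. Gzmk+ CD8 cells of the T cell sort held 32 Eomes UMIs in the ZsG-negative and 31 in the ZsG-positive library. Without the cell richest in Eomes, which held 6 and 12 of them, these were 67.8 and 52.4 CPM. Xcl1+ cells without their richest cell were at 92.9 CPM. With the richest cells kept, the Gzmk+ values were higher, and their distance from Xcl1+ cells was not tested. After thinning to 2000 UMIs an Eomes UMI was found in 35.7% (33.1 to 38.3) of Ly49+ cells, and unthinned in 60.5%. In macrophage/monocyte cells of the library the thinned share was 0% and the unthinned share 1.01%.

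Tbx21 had another order. It was at 104 (81.3 to 131) CPM in Xcl1+ cells, 79.8 (73.3 to 86.6) in Ly49+ cells and 67.1 (58.9 to 76.2) in Gzmc-high cells, where the intervals of neighbours overlap, while the intervals of their ratios narrowly excluded 0, at -0.38 (-0.74 to -0.01) for Ly49+ over Xcl1+ and -0.25 (-0.47 to -0.03) for Gzmc-high over Ly49+ cells. T cells of the 4 libraries held 29.7 to 42.5 CPM. Zeb2, which follows T-bet in NK maturation, was at 94.6 (87.6 to 102) CPM in Ly49+ cells and at 42.5 (28.5 to 61.1) and 45.6 (38.9 to 53.2) CPM in Xcl1+ and Gzmc-high cells, which did not differ beyond their intervals. Runx3 stood at 321 (308 to 334), 245 (209 to 285) and 309 (291 to 328) CPM in Ly49+, Xcl1+ and Gzmc-high cells.

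The factors of the naive state were present in NK cells too. Tcf7 was at 146 (138 to 156) CPM in Ly49+, 142 (115 to 174) in Xcl1+ and 86.5 (77.1 to 96.6) in Gzmc-high cells. Lef1 was at 57, 49.9 and 33.3 CPM and Bach2 at 51.9, 45.5 and 35.0 CPM in the same order. Id2, needed for NK and ILC development, was high in all 3, at 494, 459 and 539 CPM, while Id3 rested on 12, 1 and 2 UMIs.

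For Ly49+ over Xcl1+ cells the log2 ratio was 1.11 (0.76 to 1.47) for Eomes, 1.15 (0.62 to 1.74) for Zeb2 and 1.46 (0.07 to 3.36) for Prdm1, where Xcl1+ cells had 4 UMIs. Runx3 was at 0.39 (0.16 to 0.63), and Tcf7 (0.04), Lef1 (0.19), Bach2 (0.19) and Id2 (0.11) had intervals that included 0. Of 9 factors compared 3 were called higher and 0 lower, against 5.32% and 5.2% of 9708 genes. Without cells that carried a Mki67 UMI, a gene of dividing cells, 1 was called. Of the 26 further lymphocyte factors 22 were compared and, against the same shares, 0 were called higher and 4 lower in Ly49+ cells: Rora (-2.77), Zbtb16 (-1.59), Ikzf2 (-1.52) and Maf (-1.04), of which Rora and Zbtb16 are known from ILCs. Of 16 effector genes 5 were called higher and 1 lower, with Gzma, a granzyme, at 1.81 and Cxcr6, a receptor of tissue-resident cells, at -3.37.

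For Gzmc-high over Ly49+ cells, Zeb2 had a log2 ratio of -1.05 (-1.31 to -0.80) and was the 1 factor of 9 called lower, against 6.01% of genes, while 0 were called higher, against 5.04%. It fell short of the call with TMM factors, without mitochondrial and ribosomal genes in the total, and with gates set after thinning. Tcf7 had -0.76 (-0.95 to -0.57), Lef1 -0.77 (-1.08 to -0.48), Bach2 -0.57 (-0.87 to -0.27), Eomes -0.52 (-0.66 to -0.38) and Prdm1 -0.64 (-1.22 to -0.10). Id2 and Runx3 differed by 0.12 (0.04 to 0.21) and -0.05 (-0.16 to 0.05), and Id3 rested on 2 and 12 UMIs. Gzmc-high cells had a median of 9320 UMIs against 4473 in Ly49+ cells.

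**Figure D3:**
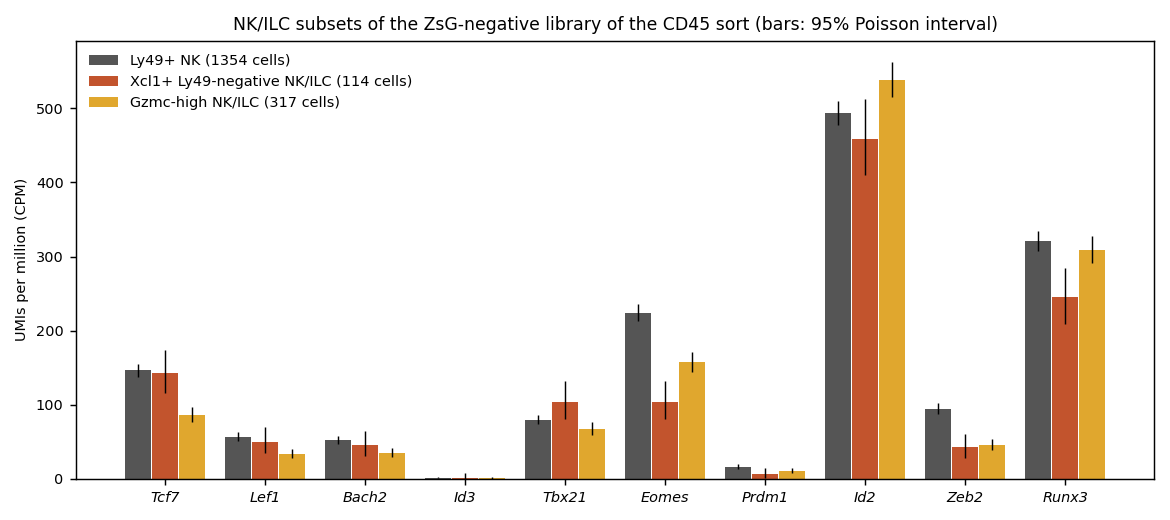
Level of each factor (CPM, linear axis from 0) in 3 NK/ILC subsets of the ZsG-negative library of the CD45 sort, as bars with 95% Poisson intervals. Eomes and Zeb2 are highest in Ly49+ cells, at 224 and 94.6 CPM, and Tbx21 has its highest bar, 104 CPM, in Xcl1+ cells.

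Over all T cells against all NK/ILC cells of the CD45 sort, Eomes had the lowest ratio, at -2.45 (-2.58 to -2.33) in the ZsG-negative and -2.23 (-2.70 to -1.75) in the ZsG-positive library. Bach2 was also lower in T cells, at -1.17 (-1.37 to -0.98) and -1.77 (-2.67 to -0.82). Prdm1 was higher, at 0.94 (0.68 to 1.21) and 2.35 (0.76 to 4.66), the latter against 3 UMIs in NK/ILC cells. Pdcd1+ Havcr2+ CD8 cells gave 10252494 of the 17887796 T cell UMIs in the ZsG-negative library, and T cell subsets differed in direction. Bach2 was at 64.2 CPM in naive-like and 7.12 CPM in Pdcd1+ Havcr2+ cells there, against 46.8 CPM in NK/ILC cells. Prdm1 was at 4.21 and 33.0 CPM in the same 2 subsets, against 13.8 CPM in NK/ILC cells. Id3 had 1.96 (1.17 to 2.86) in the ZsG-negative library and 0.64 (-1.06 to 3.00) in the other. Tbx21 (-0.94 and -0.78), Runx3 (-0.65 and -0.50) and Id2 (-0.59 and -0.55) were lower in T cells in both libraries, with intervals that excluded 0. Zeb2 was at -0.95 and 0.34 and Lef1 at 0.26 and -0.22, the latter value of each with an interval that included 0. Of 10 factors 1 was called higher and 2 lower in the ZsG-negative library, against 9.92% and 9.83% of 11588 genes, and 1 and 3 in the ZsG-positive library, against 11.4% and 8.51%. Tcf7 was at -0.64 in the ZsG-negative library and was called in the ZsG-positive one, at -1.28 (-1.81 to -0.72), where its sign turned to 0.064 when each cell's CPM weighed equally and to 0.49 without Mki67-positive cells. The 26 further factors gave 5 higher and 4 lower in both libraries, of 23 and 22 compared, with Irf4, a factor induced by T cell receptor signals, at 4.52 and 3.79.

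ZsG-positive T cells held less Tcf7 and Lef1 than ZsG-negative T cells in both sorts. The sorts share no library. In the T cell sort Lef1 stood at 46.9 (41.6 to 52.7) CPM in ZsG-positive and 114 (104 to 124) CPM in ZsG-negative T cells, a log2 ratio of -1.28 (-1.49 to -1.07). The CD45 sort gave 26.6 (20.8 to 33.5) and 59.4 (55.9 to 63.1) CPM and a ratio of -1.16 (-1.52 to -0.81). Tcf7 was at 71.3 (64.7 to 78.3) against 134 (124 to 146) CPM in the T cell sort and at 38.4 (31.4 to 46.6) against 81.8 (77.7 to 86.1) CPM in the CD45 sort, with ratios of -0.92 (-1.10 to -0.74) and -1.09 (-1.39 to -0.80). Bach2 went the same way, at 21.1 against 36.5 CPM and 11.1 against 20.7 CPM, with ratios of -0.79 (-1.14 to -0.45) and -0.90 (-1.49 to -0.37).

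The effector factors differed less, apart from Zeb2. Its level was 68.6 (62.2 to 75.5) against 47.7 (41.6 to 54.4) CPM in the T cell sort and 98.3 (86.8 to 111) against 39.7 (36.9 to 42.8) CPM in the CD45 sort, with ratios of 0.53 (0.29 to 0.77) and 1.31 (1.10 to 1.51). Prdm1 had ratios of 0.60 (0.24 to 0.97) and 0.37 (0.03 to 0.69), and Runx3 of -0.40 (-0.53 to -0.28) and -0.17 (-0.31 to -0.03). Tbx21, at -0.14 and 0.07, and Eomes, at 0.12 and -0.14, had intervals that included 0 in both sorts. Id2 was at 0.16 (0.07 to 0.25) and -0.17 (-0.27 to -0.06).

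After thinning to 2000 UMIs a Lef1 UMI was found in 12.6% (10.2 to 15.3) of ZsG-positive against 22.1% (18.9 to 25.5) of ZsG-negative T cells of the T cell sort, and a Tcf7 UMI in 14.5% (12 to 17.4) against 22.6% (19.4 to 26). Unthinned, the shares were 27.8% against 43.8% and 30.8% against 45.1%. Thinned shares of the CD45 sort were 11.5% (7.53 to 16.7) against 17.2% (15.2 to 19.3) for Lef1 and 15.4% (10.8 to 21.0) against 26.7% (24.4 to 29.1) for Tcf7. Median depths were close in the T cell sort, at 6147 and 5761 UMIs, and 8344 and 6713 UMIs in the CD45 sort.

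Of 10 factors, 0 were called higher and 1 lower (Lef1) in the T cell sort, against 4.09% and 1.54% of 9961 genes. For the CD45 sort 2 were called higher (Zeb2, Id3) and 2 lower (Tcf7, Lef1), against 5.52% and 2.95% of 11053 genes. These calls were 1 in all, that of Zeb2, when cells were thinned to 2000 UMIs, weighed equally or had no Mki67 UMI, with Tcf7 at -0.90, -0.59 and -0.45 and Lef1 at -0.73, -0.91 and -0.75. The call of Id3, at 1.02 from 28 UMIs of which 9 lay in 1 cell, was lost without the cell richest in it on each side (0.55), and with cells thinned to 2000 UMIs or weighing equally the value was -0.00059 and -0.42. Over all CD8 T cells, 0 were called higher and 1 lower in the T cell sort, against 3.86% and 2.03%, and 1 and 1 in the CD45 sort, against 4.53% and 2.64%. Lef1 had ratios of -1.22 (-1.48 to -0.96) and -1.54 (-2.12 to -1.02) there, and Zeb2 of 0.61 (0.36 to 0.87) and 1.19 (0.95 to 1.42).

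The T cell subsets were found in different numbers on the 2 sides. In the T cell sort the ZsG-positive library had 55 naive-like, 118 Pdcd1+ Havcr2+ and 105 Treg cells, and the ZsG-negative library 97, 51 and 30. When the 8 subsets of the ZsG-positive library were weighted by their UMIs in the ZsG-negative library, a setting added after the values were seen, the ratio of Tcf7 became -0.09 in the T cell sort and -0.41 in the CD45 sort, where 3 of the 8 ZsG-positive subsets held 5 to 10 cells. Lef1 became -0.63 and -0.62, Bach2 -0.52 and -0.30, Prdm1 0.14 and 0.07, and Zeb2 0.41 and 1.27. Over all T cells, no factor of the T cell sort and 1 of the CD45 sort, Zeb2, was past a ratio of 1 at that mix. Over all CD8 T cells of the CD45 sort, Lef1 was at -1.03 and Zeb2 at 1.18 at the same mix. Without Mki67-positive cells, Lef1 over all T cells was at -1.16 and -0.75, Tcf7 at -0.71 and -0.45 and Zeb2 at 0.61 and 1.84.

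**Figure D4:**
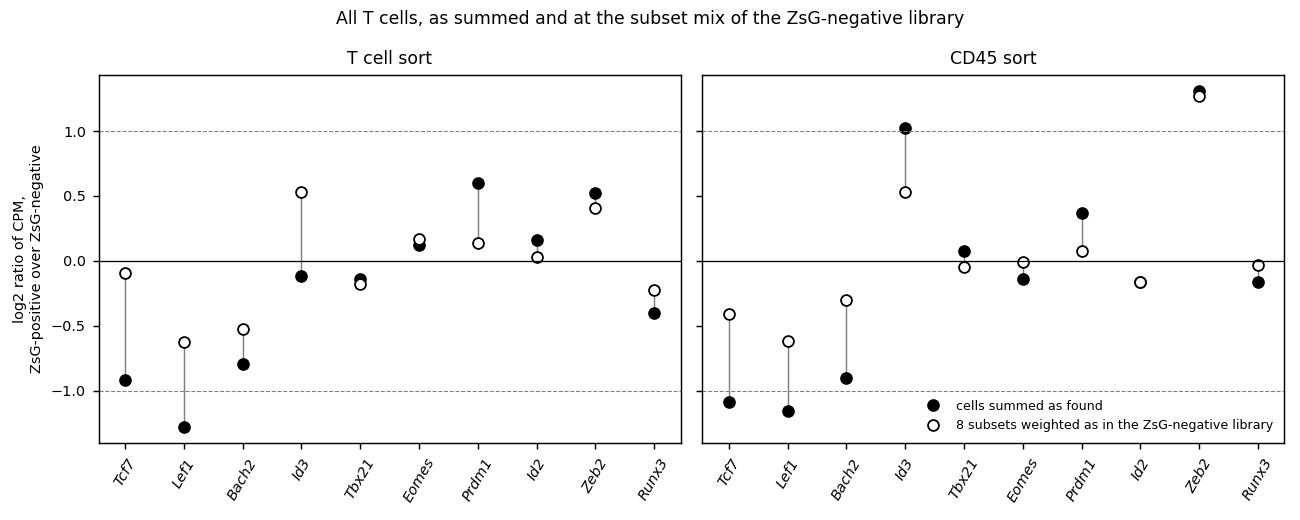
Log2 ratio of CPM in ZsG-positive over ZsG-negative T cells, with cells summed as found (filled) and with the 8 T cell subsets weighted as in the ZsG-negative library (open), in the T cell sort (left) and the CD45 sort (right); dashed lines mark 1 and -1. Tcf7 moves from -0.92 to -0.09 and Lef1 from -1.28 to -0.63 in the T cell sort, and Zeb2 from 1.31 to 1.27 in the CD45 sort.

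Within subsets of 20 or more cells on both sides, the ratio of Lef1 was below 0 in 8 of 8 subsets of the T cell sort and in 6 of 6 of the CD45 sort, with intervals that excluded 0 in 4 and 3 of them. The CD45 sort subsets counted here include Ly49+ NK cells, at -0.56 (-1.58 to 0.29). Lef1 was at -1.19 (-1.95 to -0.44) in Pdcd1+ Havcr2- CD8 cells and -1.11 (-1.66 to -0.58) in T cells without Cd4, Cd8 or Foxp3 of the T cell sort, and -0.96 (-1.85 to -0.03) in Treg cells. In the Treg cells 6 of 17 ZsG-negative UMIs lay in 1 cell, and the ratio was -0.64 without the cell richest in Lef1 on each side. In naive-like cells of that sort Lef1 was at -0.42 (-0.87 to 0.02) and in Pdcd1+ Havcr2+ cells at -0.14 (-1.36 to 1.18). The CD45 sort gave -1.29 (-2.77 to -0.11) in Pdcd1+ Havcr2- and -1.06 (-2.0 to -0.25) in Pdcd1+ Havcr2+ cells, and -0.08 (-0.66 to 0.45) in T cells without Cd4, Cd8 or Foxp3.

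Tcf7 did not differ in naive-like cells of the T cell sort, at 294 against 296 CPM with a ratio of -0.01 (-0.36 to 0.34). In Pdcd1+ Havcr2- cells it was at 68.2 against 105 CPM in the T cell sort and 47.0 against 81.2 CPM in the CD45 sort, with ratios of -0.63 (-1.15 to -0.11) and -0.79 (-1.63 to -0.05). Bach2 had a ratio of -1.56 (-2.70 to -0.58) in naive-like cells of the T cell sort and one of 1.10 (-0.09 to 2.52) in Pdcd1+ Havcr2+ cells, the latter 0.95 without the cell richest in Bach2 on each side, which ends its call.

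Zeb2 was higher in Pdcd1+ Havcr2+ cells in both sorts, at 107 (92.5 to 122) against 74.0 (56.6 to 95.1) CPM in the T cell sort and 105 (88.8 to 123) against 44.2 (40.2 to 48.4) CPM in the CD45 sort. The ratios were 0.53 (0.11 to 0.96) and 1.25 (0.97 to 1.51). In the CD45 sort it was also called in other CD8 cells (1.12), in Treg cells (2.67, with 11 of 33 UMIs in 1 cell) and in T cells without Cd4, Cd8 or Foxp3 (1.67).

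Macrophage genes moved with these values. All 9 of 9 macrophage/monocyte markers (Lyz2, C1qa, C1qb, C1qc, Apoe, Csf1r, Adgre1, Ms4a7, Cd68) were higher in T cells of the ZsG-positive than of the ZsG-negative library in each sort, and none was at 0. Their summed level was 987 against 47.4 CPM in the CD45 sort and 145 against 52.5 CPM in the T cell sort, which is 4.70% against 0.168% and 0.634% against 0.211% of the level in macrophage/monocyte cells of the same library. Before this, 91 and 13 T cells of the CD45 sort with 0.5% or more of such UMIs had been left out. Zeb2 is itself high in those cells, at 563 to 635 CPM, and the same share of their Zeb2 is 26.5 CPM in the ZsG-positive library of the CD45 sort, where T cells held 98.3 CPM, and 3.57 CPM in that of the T cell sort, where T cells held 68.6 CPM. In Treg cells of the CD45 sort it is 40.7 CPM, of 88.4 CPM measured. These figures depend on the markers summed. In the ZsG-positive library of the CD45 sort Csf1r gave a larger share, at 28.5 CPM in T cells against 267 CPM in macrophage/monocyte cells. C1qa gave a smaller one, at 85.7 against 2409 CPM. The part of these transcripts in the Zeb2 ratios was not tested. Lef1, Tcf7 and Eomes were at 0 to 2.32 CPM in macrophage/monocyte cells of all 4 libraries.

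Eomes in Pdcd1+ Havcr2+ cells of the T cell sort was at 49.4 (40.0 to 60.4) CPM in the ZsG-positive and 17 (9.29 to 28.5) CPM in the ZsG-negative library, a ratio of 1.54 (0.72 to 2.47), and of 1.33 without the cell richest in Eomes on each side. The CD45 sort gave 39.3 and 37.8 CPM for the same subset, a ratio of 0.05 (-0.37 to 0.46). Id2 in Treg cells was at 398 (361 to 438) against 231 (178 to 294) CPM in the T cell sort, a ratio of 0.79 (0.41 to 1.19), and at 180 (139 to 228) against 241 (206 to 279) CPM in the CD45 sort, a ratio of -0.42 (-0.85 to -0.01). The sorts thus differed in direction for Id2 in Treg cells, and that difference was not tested. Id3 in T cells without Cd4, Cd8 or Foxp3 was at 51.7 against 7.80 CPM in the T cell sort, where 17 of 25 UMIs lay in 1 cell, and its ratio was 2.73 with and 1.32 without the richest cells.

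By subset of the T cell sort, the calls were 0 higher and 1 lower (Bach2) of 8 factors in naive-like cells, against 3.23% and 3.47% of genes, 0 of 7 in Gzmk+ cells against 2.69% higher and 2.79% lower, and 0 higher and 1 lower (Lef1) of 9 in Pdcd1+ Havcr2- cells, against 3.88% and 3.41%. Pdcd1+ Havcr2+ cells had 2 higher (Bach2, Eomes) and 0 lower of 8, against 3.57% and 1.66%. Other CD8 cells had 0 higher and 1 lower (Id3) of 10, against 2.88% and 2.82%, and conventional CD4 cells 0 higher and 1 lower (Prdm1, 3 against 17 UMIs) of 5, against 2.27% and 4.63%. Treg cells had 0 of 5, against 5.97% higher and 3.59% lower, and T cells without Cd4, Cd8 or Foxp3 had 1 higher (Id3) and 1 lower (Lef1) of 9, against 2.47% and 2.49%. Pdcd1+ Havcr2- cells of the CD45 sort had 0 higher and 1 lower (Lef1) of 9 against 5.16% and 5.35%, and its Pdcd1+ Havcr2+ cells had 1 higher (Zeb2) and 2 lower (Tcf7, Lef1) of 9 against 4.66% and 2.7%. Other CD8 cells had 1 higher (Zeb2) and 1 lower (Lef1) of 8 against 11.7% and 7.42%, and Treg cells 1 higher (Zeb2) and 0 lower of 6 against 5.41% and 3.71%. T cells without Cd4, Cd8 or Foxp3 had 1 higher (Zeb2) and 2 lower (Prdm1, Id3) of 10 against 8.18% and 7.33%, where Prdm1 had 0 UMIs and Id3 1 UMI in the ZsG-positive library. The Tcf7 call in Pdcd1+ Havcr2+ cells also rests on 1 UMI, with a ratio of -3.06 (-8.39 to -0.53).

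**Figure D5:**
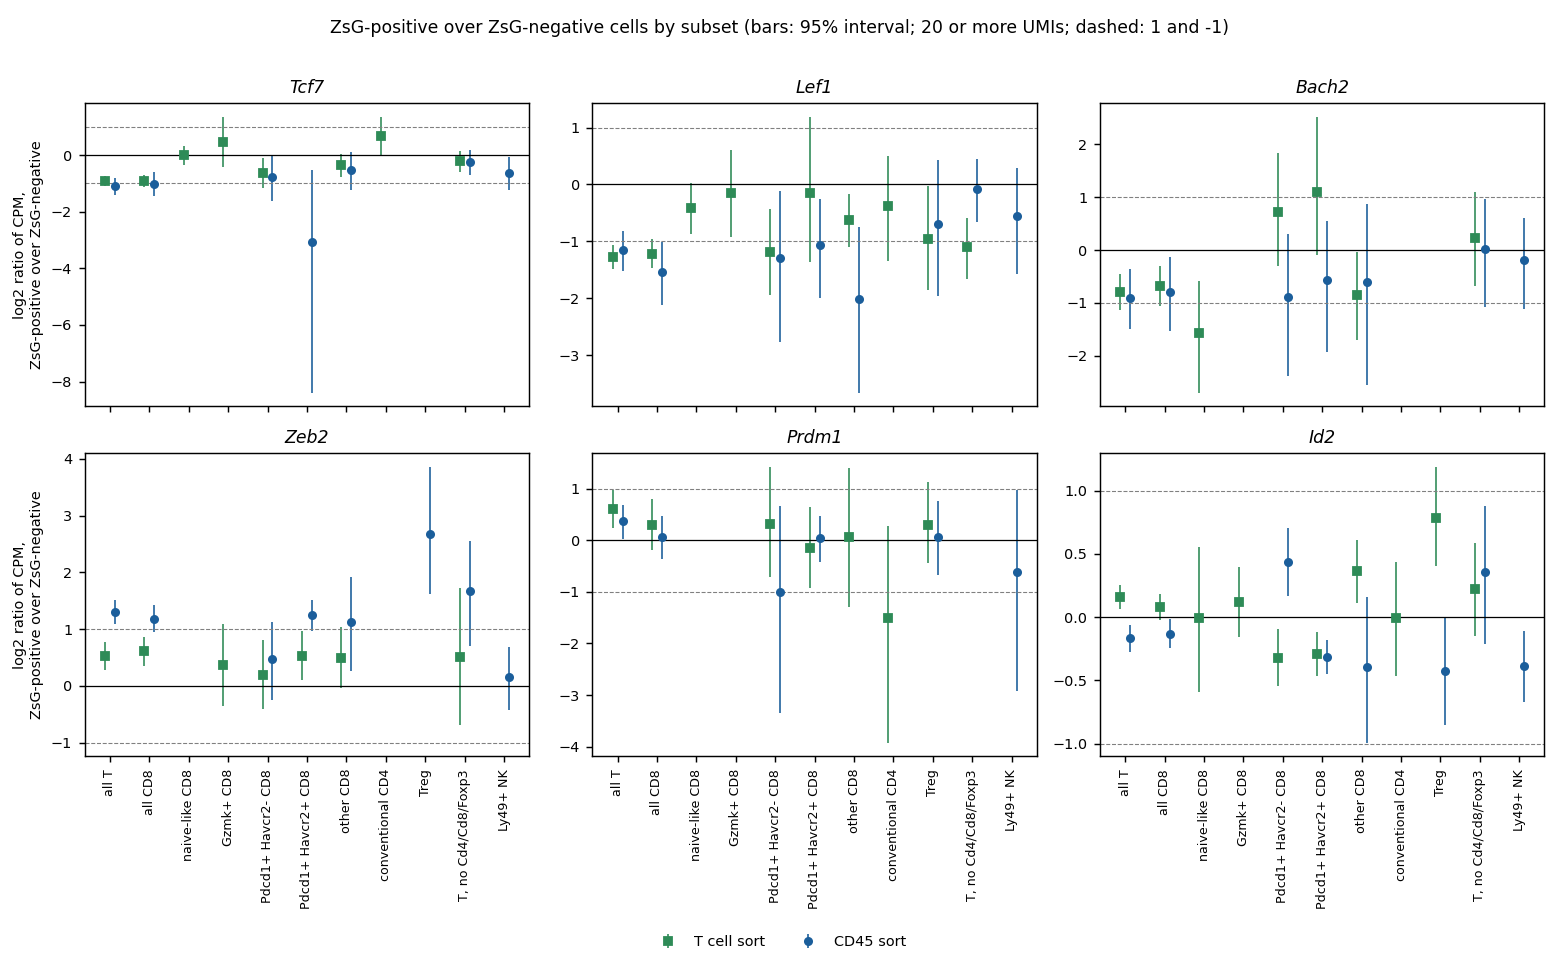
Log2 ratio of CPM in ZsG-positive over ZsG-negative cells for 6 factors in all T cells, all CD8 T cells and single subsets, with 95% intervals, in the T cell sort (squares) and the CD45 sort (circles); dashed lines mark 1 and -1, and only values from 20 or more UMIs are drawn. Lef1 lies below 0 in every subset drawn, and Zeb2 above 0 in every subset drawn.

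NK/ILC cells could be compared in the CD45 sort alone, with 81 ZsG-positive and 1824 ZsG-negative cells. Tcf7 had a ratio of -0.45 (-0.93 to -0.01), Eomes of -0.36 (-0.73 to -0.02) and Runx3 of -0.32 (-0.60 to -0.05). Tbx21, at 73.2 against 77.7 CPM, and Zeb2, at 77.7 against 76.8 CPM, had ratios of -0.09 (-0.63 to 0.41) and 0.02 (-0.51 to 0.50). Id2 was at -0.20 (-0.41 to 0.01), Bach2 at -0.31 (-1.10 to 0.38), Lef1 at -0.67 (-1.55 to 0.09) and Prdm1, with 3 UMIs in ZsG-positive cells, at -1.05 (-3.34 to 0.53), and Id3 rested on 3 and 15 UMIs. The macrophage/monocyte markers summed to 810 against 54.8 CPM in these cells, and their part in the ratios was not tested. No factor of 9 was called, against 8.4% of genes called higher and 7.1% lower. In Ly49+ NK cells alone 0 of 9 were called, against 9.05% and 9.39%.

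Genes of the fixed lists were also compared over all T cells, where 4.09% and 5.52% of all genes were called higher and 1.54% and 2.95% lower in the T cell sort and the CD45 sort. Of the 26 further factors 22 were compared in each sort, with 0 higher and 1 lower in the T cell sort and 1 and 1 in the CD45 sort. Satb1, a chromatin organizer of naive T cells, was the lower one in both, at -1.10 and -1.01. Maf was the higher one in the CD45 sort, at 1.58. The macrophage/monocyte markers were at 987 against 47.4 CPM in those T cells, and their part in the Maf ratio was not tested. Among the genes of naive and stem-like cells 1 was called higher and 3 lower of 12 in the T cell sort, Xcl1 (2.75), S1pr1 (-1.33), Igfbp4 (-1.24) and Il7r (-1.15), and 0 and 2 of 12 in the CD45 sort, Dapl1 (-1.81) and S1pr1 (-1.27). The effector genes gave 2 higher and 2 lower of 16 in the T cell sort, Ifng (1.82), Ccl4 (1.19), Gzma (-1.06) and S1pr5 (-1.04), and 0 and 1 of 15 in the CD45 sort, Gzma (-1.52). Of the 3 E proteins, Tcf4, which pDC need, was called higher in the T cell sort, at 16.3 against 6.56 CPM with a ratio of 1.32. The pDC markers Siglech and Ccr9 were also higher in those T cells, at 18.5 against 0.219 CPM and 22.6 against 3.28 CPM, while the third, Bst2, was at 419 against 428 CPM. Siglech was at 0.965% of its level in the 601 pDC of the ZsG-positive library, and the same share of their Tcf4 is 16.8 CPM and of their Zeb2 2.91 CPM. For the 120 pDC of the ZsG-negative library the share of Tcf4 is 0.188 CPM. The part of pDC transcripts in this ratio was not tested.

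Across 24 sums of subset and library with 50 or more cells each, the genes most like each factor were ranked by Pearson's r of log2(CPM + 1) over 4987 genes (4988 for Id3). Tcf7 was followed most closely by Emb (r = 0.97) and Clec2i (0.94), Lef1 by Ssh2 (0.95) and Ablim1 (0.94), and Bach2 by Pde3b (0.92) and Evl (0.91). Eomes ran with Atp8b4 (0.91) and Ugcg (0.90), Tbx21 with Nudt4 (0.88) and Serpinb9 (0.86), and Runx3 with Atp8b4 (0.88) and Gm14029 (0.88). Id2 was matched by Ech1 (0.92) and Itgb2 (0.91), Prdm1 by Elob (0.90) and 1810037I17Rik (0.87), Zeb2 by Nkg7 (0.87) and Nr4a2 (0.84), and Id3 by Sh3bp5 (0.78) and Irf7 (0.78). Among the factors themselves, r was 0.89 for Tcf7 with Lef1, 0.82 for Tcf7 with Bach2, 0.84 for Eomes with Runx3 and 0.74 for Id2 with Zeb2. It was -0.69 for Prdm1 with Bach2, -0.68 for Prdm1 with Tcf7 and -0.66 for Id2 with Id3. The sums share libraries and differ in depth. They come from 2 sorts whose file headers give different Cell Ranger versions, and all NK/ILC sums among them are from the CD45 sort. These values therefore only describe the order of levels.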

How the data were processed

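Processed matrices of unique molecular identifier (UMI) counts per gene and cell were deposited for 4 libraries, 2 per sort, each sort in 1 combined matrix. Per the labels and file headers the authors made the counts with Cell Ranger (6.1.2, and 7.0.0 in the header of the CD45 sort) on mm10. Per the study's account the aggr step of Cell Ranger combined the libraries. Whether that step evened out depth between libraries is not stated.

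Cells of the CD45 sort were kept at 1000 to 6000 genes and under 10% mitochondrial UMIs, and cells of the T cell sort at 50 to 6000 genes and under 15%. T cells needed 2 or more Cd3d, Cd3e or Cd3g UMIs making 0.055% of their UMIs, no Ncr1, and under 0.5% of UMIs from 9 macrophage/monocyte markers. That limit stood in for a doublet caller, which was not run, and removed 13, 91, 7 and 33 T-like cells (ZsG-negative then ZsG-positive library of the CD45 sort, then of the T cell sort). CD8 cells were divided by UMIs of Pdcd1, Havcr2, Gzmk and Ccr7 or Dapl1, Treg cells by Foxp3, and NK/ILC cells by Ncr1, then Gzmc, Ly49 genes and Xcl1. Macrophage/monocyte cells had 1% or more of UMIs from the markers. A gate that needs 1 UMI depends on depth.

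UMIs were summed per subset and library and scaled to CPM (UMIs per 1000000 UMIs of the summed total). Intervals are exact Poisson for CPM, Clopper-Pearson for shares and exact conditional for log2 ratios, all at 95% and for counting error only. With 1 library per condition no test between conditions was possible, and no p-value is given. A gene was compared where it had 20 or more UMIs over both sides and called at a log2 ratio of 1 or more in size after adding 0.5 to each sum. A sum of 0 was read against a floor of 3 counts. For shares at matched depth each cell was thinned to 2000 UMIs and shallower cells were left out. The call was run on simulated sums with counting error only and with set changes larger than the call limit. That run therefore cannot speak to spread between cells, libraries or mice. No deposited per-sample column was left unused (0).

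The 10 genes were compared in every comparison, and single subsets are given by their counts and the genes called or discussed. From each fixed list, genes past the call were named, at most 5 with the largest ratios, and the 2 genes most like each factor were those of highest r among genes with a mean of 20 CPM or more over subsets of 50 or more cells, gate genes left out. The factors, lists and subsets were chosen with earlier results of these data known. Alternatives were other limits on mitochondrial share, markers, UMIs and gates, thinning, TMM factors (edgeR 4.0.16 in R 4.3.3), equal weight per cell, and totals without mitochondrial and ribosomal genes. Python 3.11.15 with numpy 2.4.6, scipy 1.17.1, pandas 2.3.3 and matplotlib 3.10.9 was used. Promoter windows came from RefSeq on GRCm38.p6 and gene positions from GENCODE vM21.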

Additional observations from a re-analysis of the deposited data

Results flagged for a closer look

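Some ZsG-positive over ZsG-negative log2 ratios pointed in opposite directions in different subsets of the same sort, with both intervals clear of 0, and the differences themselves were not tested. In the T cell sort Id2 was at 0.36 in other CD8 cells and 0.79 in Treg cells, but at -0.32 in Pdcd1+ Havcr2- cells and -0.29 in Pdcd1+ Havcr2+ cells. Id3 was at 2.73 in T cells without Cd4, Cd8 or Foxp3, where 17 of 25 UMIs lay in 1 cell, and at -2.25 in other CD8 cells. In the CD45 sort Id2 was at 0.44 in Pdcd1+ Havcr2- cells and at -0.31 in Pdcd1+ Havcr2+ cells, -0.42 in Treg cells and -0.38 in Ly49+ NK cells. Pdcd1+ Havcr2- cells thus lay on opposite sides in the 2 sorts, at -0.32 and 0.44.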

How the results depend on the processing

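Across all alternatives 2671 values of single factors were recomputed, of which 2439 stayed within their counting interval with the same sign, 223 moved outside it and 9 called values changed sign. Of those that stayed, 245 with no minimum of UMIs and 161 at 100 UMIs could not move. A minimum of UMIs selects genes and leaves their ratios as they are. Alternatives without Mki67-positive cells, at the subset mix of the ZsG-negative library and without the cell richest in the gene were added after the values had been seen. No paired analysis was possible because each group has 1 library, and for the same reason no replicate was left out. Gates set after thinning gave 187 values. Comparisons in which too few cells remained were left out, among them Pdcd1+ Havcr2+ over naive-like cells of the T cell sort. The cause of each change below was not tested.

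The values that changed sign were these. With macrophage-marker cells kept, Zeb2 in Treg over conventional CD4 cells of the ZsG-negative CD45 library became 0.30, and Prdm1 in T cells without Cd4, Cd8 or Foxp3 of the CD45 sort 1.24. With gates set after thinning, that Prdm1 ratio was 0.47, Id3 in the same cells 1.01, and Zeb2 in Pdcd1+ Havcr2+ over naive-like cells of the CD45 sort -0.22. Id3 in all T cells of the CD45 sort became -0.00059 after thinning and -0.42 with equal weight per cell. Tcf7 in T over NK/ILC cells of the ZsG-positive library became 0.064 with equal weight per cell and 0.49 without Mki67-positive cells.

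Counts of factors called, in either direction, moved by over 1.5 times as follows. For all CD8 T cells of the CD45 sort, 2 became 4 with a 5% mitochondrial limit, 4 with macrophage-marker cells kept, 5 with gates at 2 UMIs and 4 without the richest cells. For all NK/ILC cells, 0 became 1, 4, 1 and 1 with a 5% mitochondrial limit, macrophage-marker cells kept, no minimum of UMIs and without the richest cells. For Gzmc-high over Ly49+ cells, 1 became 2 with macrophage-marker cells kept and with no minimum, and 0 with gates after thinning, TMM factors or totals without mitochondrial and ribosomal genes. For T over NK/ILC cells of the ZsG-positive library, 4 became 2, 1 and 2 with macrophage-marker cells kept, thinning and a minimum of 100 UMIs. For Pdcd1+ Havcr2+ over naive-like cells of the T cell sort, 7 became 4 after thinning and 3 at 100 UMIs in the ZsG-negative library, and 6 became 3 at 100 UMIs in the ZsG-positive one. For all T cells of the CD45 sort, 4 became 1 after thinning, with equal weight per cell, without Mki67-positive cells and at the subset mix. For Ly49+ over Xcl1+ cells, 3 became 1 without Mki67-positive cells. At the subset mix the 1 call became 0 for all T and for all CD8 cells of the T cell sort. At full depth the share of cells with Tcf7 was 86.0%, 79.4% and 78.2% of naive-like and 8.68%, 11.8% and 6.78% of Pdcd1+ Havcr2+ cells, and Id2 was found in 46.3% and 53.8% of Tcf7+ CD8 cells of the ZsG-negative and ZsG-positive T cell libraries and in 48.2% in the CD45 sort.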

Other observations

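Outside T and NK/ILC cells, several of the factors were as high or higher. Id2, which dendritic cells of the cross-presenting type need for their development, stood at 1005, 682, 687 and 721 CPM in DC1 of the ZsG-negative and ZsG-positive libraries of the CD45 sort and then of the T cell sort, from 21, 113, 9 and 39 cells. T cell subsets of 20 or more cells held less in each library. Zeb2, a factor of pDC and monocyte development, was at 302 to 344 CPM in pDC and at 563 to 635 CPM in macrophage/monocyte cells. Runx3 was at 192 to 219 CPM in pDC, close to the 172 to 227 CPM of T cells. The B cells of the ZsG-negative CD45 library, 35 in number, held 73.8 CPM of Bach2, which B cells need for class switching, and 170 CPM of Zeb2.

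Id3 in macrophage/monocyte cells differed between the libraries of the CD45 sort, at 224 (203 to 248) CPM in 199 ZsG-negative and 59.6 (56.8 to 62.5) CPM in 2300 ZsG-positive cells. Prdm1 stood at 70.3 (58.4 to 84.0) and 29.5 (27.5 to 31.5) CPM in the same cells, and Id2 at 102 (87.7 to 119) and 231 (225 to 236) CPM. In the T cell sort the ZsG-negative and ZsG-positive libraries held 45.3 and 34.5 CPM of Id3, 30.2 and 29.5 CPM of Prdm1, and 200 and 285 CPM of Id2. The ZsG-negative macrophage/monocyte cells of the CD45 sort also differed in the markers themselves, with 25176.9 CPM of Lyz2 and 9.88 CPM of C1qa against 10909.4 and 2409 CPM, so the gate held different cells in the 2 libraries.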
